A study of Mus musculus with 4 samples.

Results

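The genes described here are those of natural killer (NK) cells and cytotoxic T cells: the Klr family of lectin-like receptors, the granzymes, perforin, the transcription factors Eomes and Tbx21, and the receptor complex and coreceptors of T cells. They were chosen by symbol, namely Klr genes of the a, b, c, d, e, g, i and k branches, granzymes with a one-letter suffix, and 18 further genes named singly. The rule found 58 genes among 54152 symbols in the deposited table, and 50 of these 58 had enough counts to be tested, among 18530 genes tested in all. RNA came from the whole uterus of C57 mice on day 4 of pregnancy, with 2 libraries of the genotype labelled p38α ff and 2 of the genotype labelled p38α dd. By the title of the series these stand for wild-type and knockout uteri, p38α being the stress-activated kinase encoded by Mapk14. The sources used here do not give the Cre line or the exons removed in the dd genotype, or whether each library came from 1 animal or from a pool. The p-values therefore measure only the spread between these libraries.

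NK cells kill target cells by releasing granules that hold perforin, which opens the membrane, and granzymes, which are proteases that trigger death inside the target. Whether they fire depends on the balance of activating and inhibitory receptors, many of them encoded side by side in the Klr gene cluster, and on interleukin 15, which they need to survive. In the uterus, NK cells lie in the endometrium before embryo attachment and become abundant in the decidua, where they are known for their part in remodelling the arteries that feed the placenta. T cells share perforin, granzymes and several Klr receptors with NK cells, and are told from them by the CD3 chains and the T cell receptor.

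Libraries held between 24619850 and 32451670 counts, and 3 counts corresponded to between 0.0901 and 0.127 CPM (counts scaled to a common library size). Mapk14 went against the labels: it had 3074 and 2710 counts in the libraries labelled ff and 2481 and 3429 in those labelled dd. Scaled to library size these were 92.3 and 87.0 against 105.0 and 113.2 CPM, so it was not lower where a knockout is labelled. The counts are per gene, and what the deletion removes is not given, so directions below are those between the libraries as labelled. Over all genes tested, edgeR's quasi-likelihood test called 1554 at an adjusted p under 0.05, which is 8.39%. Of these, 716 were lower in the libraries labelled dd (3.86%) and 838 were higher (4.52%).

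Of the 50 genes tested here, 12 fell in the libraries labelled dd and none rose at an edgeR adjusted p under 0.05, beside 3.86% of all tested genes that fell. The 12 were Klre1, Prf1, Klrg1, Nkg7, Eomes, Klrk1, Klra7, Cd244a, Klrd1, Klra13-ps, Fasl and Klri2. At an unadjusted p under 0.05 from the same test, 32 of the 50 were lower, against 14.4% of all genes, and none was higher, against 14.9%. No gene of the 50 rose with any other tool run either. The log2 change was below 0 for 47 of the 50, where 49.7% of all tested genes were below 0. Their median log2 change was -1.08, and that of all genes was 0.002. In 38 genes both libraries labelled dd lay below both labelled ff, against 31.3% of all tested genes. In Cd3g and Gzmm both lay above, against 31.6% of all tested genes, and in the other 10 the groups overlapped. How many pass depends on single libraries. The number of genes called was 0 without ff replicate 1, where 0.145% of all genes were called lower. It was 7 without ff replicate 2 (2.43% of all genes), 7 without dd replicate 1 (1.12%) and 3 without dd replicate 2 (0.635%). Other fits of all 4 libraries called between 10 and 25 of the genes: 10 with a replicate block (3.52% of all genes called lower), 22 without a filter on low counts (4.29%), 23 with DESeq2's Wald test (6.97%) and 25 with edgeR's exact test (7.88%). In whole tissue, fewer cells of a type and less RNA per cell cannot be told apart.

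**Figure D1:**
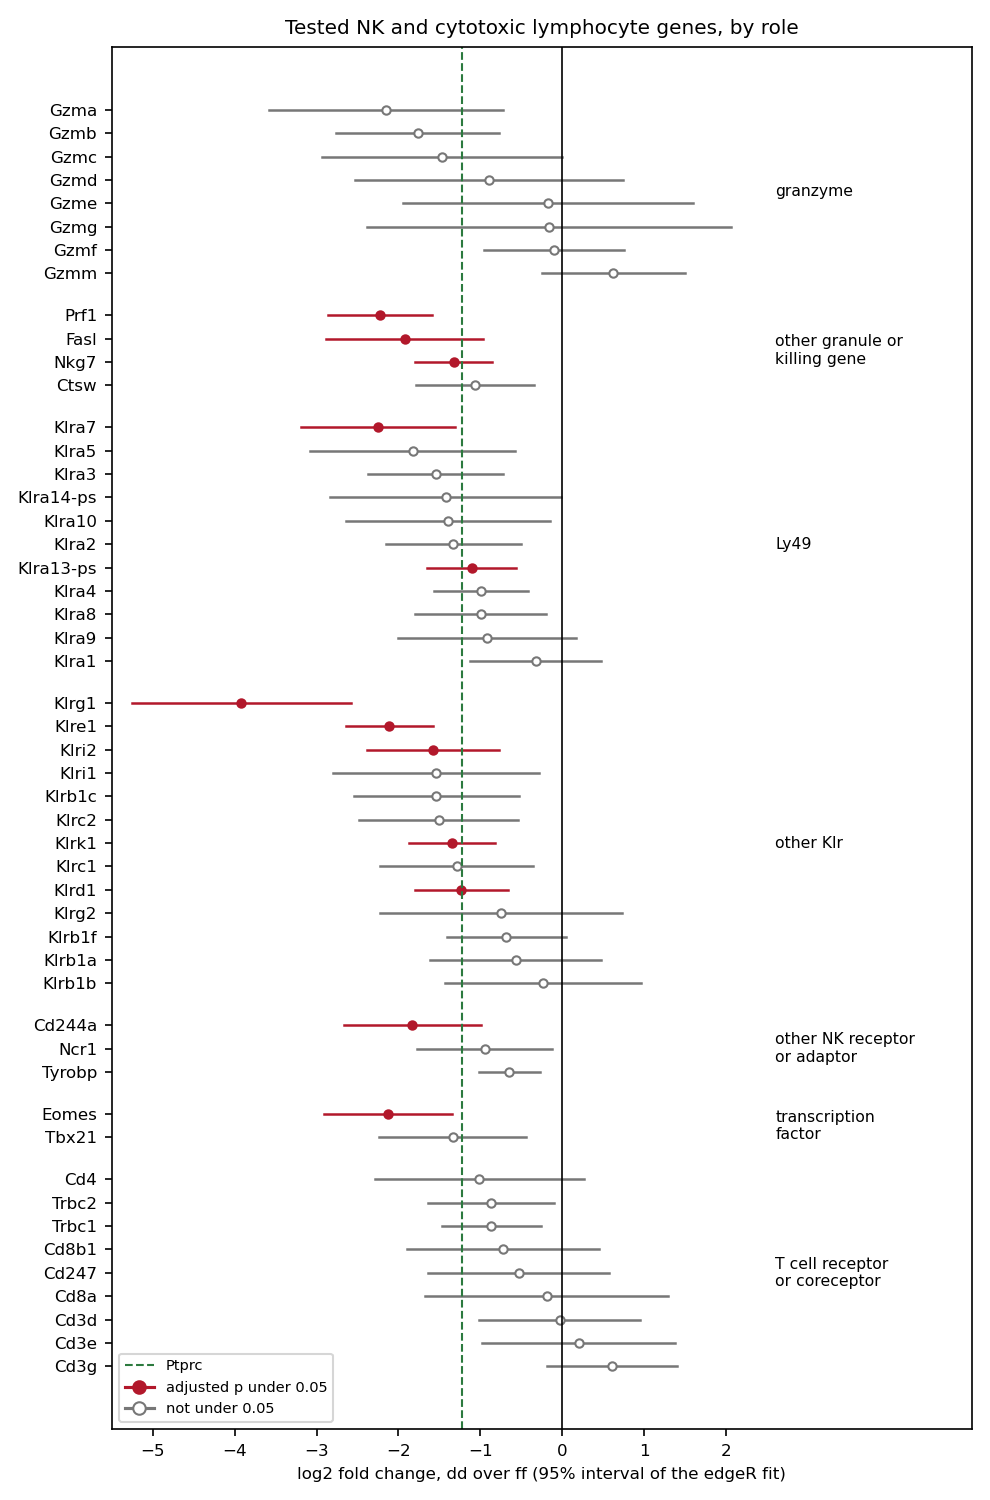
Each row is 1 of the 50 tested genes, grouped by role, and the horizontal axis is the log2 fold change of the libraries labelled dd over those labelled ff, with its 95% interval from the edgeR fit. Filled points passed an adjusted p of 0.05, the dashed line is Ptprc (-1.23), and 47 of the 50 points lie left of 0.

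Perforin, Prf1 (chromosome 10, 61297833 to 61304680, mm10), fell the most among the killing proteins other than granzymes. It had 392 and 269 counts in the libraries labelled ff and 53 and 64 in those labelled dd. The groups stood far apart, with 10.2 ± 2.22 against 2.18 ± 0.0922 CPM (SD, n = 2 in each), a fall by 2.23 on the log2 scale (SE 0.245, edgeR adjusted p = 0.0227). Nkg7 (chromosome 7, 43437073 to 43438249), a granule membrane protein needed for degranulation, had 471 and 376 counts against 130 and 150. That was 13.1 ± 1.47 against 5.23 ± 0.389 CPM, a fall by 1.33 (SE 0.182, edgeR adjusted p = 0.0277). Fas ligand, Fasl (chromosome 1, 161780689 to 161788495), kills through the Fas receptor instead of granules. It went from 65 and 52 counts to 8 and 18, a fall by 1.92 (SE 0.370, edgeR adjusted p = 0.0472). Cathepsin W, Ctsw, a protease of cytotoxic lymphocytes, had 481 and 281 counts against 125 and 180. Both libraries labelled dd were lower, but at -1.06 on the log2 scale Ctsw did not pass (edgeR adjusted p = 0.0849). An exon of Ctsw overlaps Fibp on the opposite strand, and whether the authors counted by strand is not given.

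The 250 bases before the RefSeq start of Prf1 and of Klrk1, the gene of the activating receptor NKG2D, are shown because both genes fell and because letters bound by T-box, ETS and Runx factors, which include the NK cell factors Eomes, Tbx21, Ets1 and Runx3, can be looked for in them. Both are on GRCm38.p6 and read 5′ to 3′ on the gene's strand, with matches in capitals; Prf1 is chr10:61297586-61297835 on the plus strand, and Klrk1 is chr6:129623865-129624114 on the minus strand.
Prf1: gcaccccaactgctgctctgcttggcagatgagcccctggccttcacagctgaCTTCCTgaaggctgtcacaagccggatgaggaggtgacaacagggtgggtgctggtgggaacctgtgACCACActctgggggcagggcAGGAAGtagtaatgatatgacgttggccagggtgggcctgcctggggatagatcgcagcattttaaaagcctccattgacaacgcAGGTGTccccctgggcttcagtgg
Klrk1: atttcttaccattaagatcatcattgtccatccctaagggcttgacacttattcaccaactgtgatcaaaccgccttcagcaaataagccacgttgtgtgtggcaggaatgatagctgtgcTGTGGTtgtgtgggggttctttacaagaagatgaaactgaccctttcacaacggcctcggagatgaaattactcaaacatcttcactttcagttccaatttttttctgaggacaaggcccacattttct
The letters searched on both strands were TCACAC and AGGTGT (T-box), CCGGAA and AGGAAG (ETS) and TGTGGT (Runx). A T-box match can overlap another one. Prf1 holds AGGTGT close to its start, AGGAAG on each strand, and TGTGGT read from the other strand. Klrk1 holds TGTGGT alone. RefSeq windows were matched for 45 of the 58 genes and for 8 of the 12 that fell. AGGAAG was in 20 of the 45 windows and in 29.2% of the windows of 27025 genes, and TGTGGT was in 19 of the 45 and in 14.2% of all. At least 1 of the T-box motifs was in 11 of the 45 and in 21.6% of all, and CCGGAA in 1 of the 45 and in 12.2%. These are matches of letters only, and no binding was measured.

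**Figure D2:**
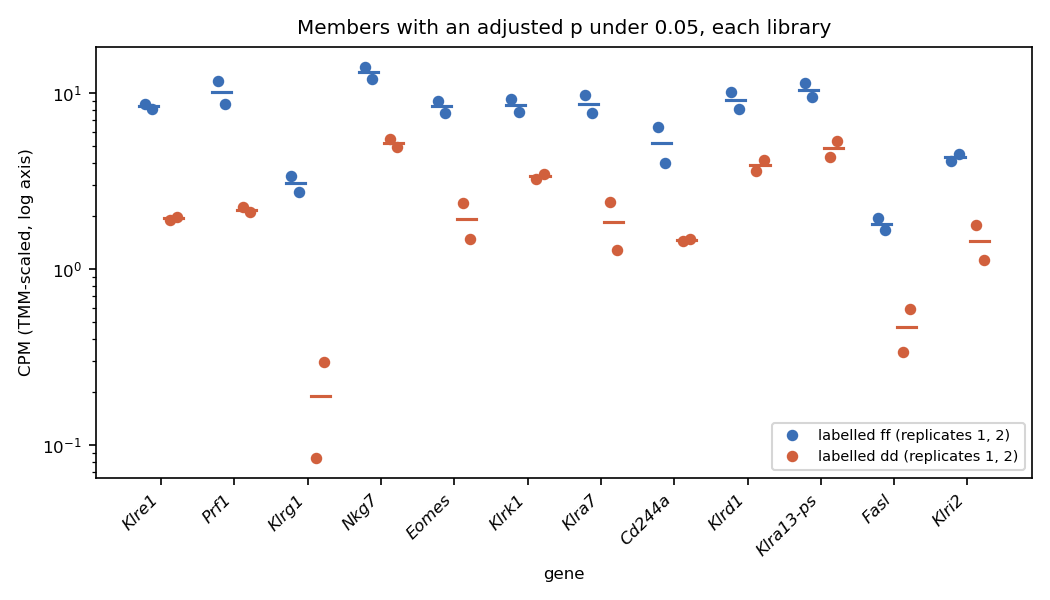
The vertical axis is CPM relative to the TMM-scaled library size, on a log axis, for the 12 genes that fell; each point is 1 library and each bar a group mean. In all 12 genes both libraries labelled dd lie below both labelled ff, and Klrg1 has the widest gap.

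No granzyme passed edgeR's quasi-likelihood test, and 3 of the 8 tested were lower at an unadjusted p under 0.05, against 14.4% of all genes. These 3, Gzma, Gzmb and Gzmc, passed with DESeq2's Wald test, Gzma and Gzmb with edgeR's exact test, Gzmb with limma-voom and none with limma-trend. In counts per length, as the authors' FPKM, Gzmb was the most abundant granzyme in the libraries labelled ff, at 26.9 ± 1.34 FPKM (SD, n = 2). Gzmc followed at 11.4 ± 1.15 and Gzma at 4.99 ± 0.975 FPKM. Those 3 of the 8 were lower in both libraries labelled dd, near the share of all tested genes (31.3%). The groups overlapped in Gzmd, Gzme, Gzmf and Gzmg, and Gzmm lay higher in both, as did 31.6% of all tested genes. Gzmb, which cleaves after aspartate and activates caspases, had 1330 and 1163 counts in the libraries labelled ff and 373 and 213 in those labelled dd. Its log2 change was -1.77, with an edgeR adjusted p of 0.0603, and the libraries labelled dd differed widely from each other (11.4 ± 6.19 CPM). Gzma, a tryptase, had 190 and 135 counts against 41 and 17, a log2 change of -2.15 (edgeR adjusted p = 0.0821). Gzmc had 316 and 342 counts against 136 and 52, a log2 change of -1.47 (edgeR adjusted p = 0.170). In each of these 3 genes, dd replicate 2 was the lowest library.

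Gzmb to Gzmg lie in a cluster on chromosome 14. Gzmd, Gzme and Gzmg hold long identical stretches, with 5.73%, 4.75% and 6.83% of their 75-base stretches found in another gene. Some of their reads may therefore not be told apart, and the read length is not given. The first 60 coding bases of the 6 tested genes of the cluster, from the GENCODE annotation on mm10, are shown because they let a reader see how close these genes are, with capitals at the bases that differ from Gzmd.
Gzmb: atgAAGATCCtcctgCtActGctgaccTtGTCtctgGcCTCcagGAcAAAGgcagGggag
Gzmc: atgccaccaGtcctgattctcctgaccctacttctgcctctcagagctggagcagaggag
Gzmd: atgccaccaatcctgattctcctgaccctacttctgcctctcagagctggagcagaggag
Gzme: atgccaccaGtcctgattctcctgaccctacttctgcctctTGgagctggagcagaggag
Gzmf: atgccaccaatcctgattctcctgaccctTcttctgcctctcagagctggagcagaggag
Gzmg: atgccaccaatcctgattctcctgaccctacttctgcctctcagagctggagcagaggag
Gzmb differed from Gzmd at 25 of these 60 bases, Gzme at 3, Gzmc and Gzmf at 1 each and Gzmg at none. Over the whole coding sequence, identity to Gzmd was 93.3% for Gzme, 86.4% for Gzmg, 83.4% for Gzmf, 69.7% for Gzmc and 64.8% for Gzmb. So Gzmc is close to Gzmd in its first 60 coding bases but much less so over the whole. Gzmf had 92 and 95 counts in the libraries labelled ff and 81 and 61 in those labelled dd, a log2 change of -0.10 (edgeR adjusted p = 0.865). Its exons overlap Gm4022 on the opposite strand. Gzmd had 80 and 121 counts against 63 and 23, with a log2 change of -0.89 (edgeR adjusted p = 0.401). Gzme had 25 and 30 counts against 30 and 9, at a log2 change of -0.17 (edgeR adjusted p = 0.891), and Gzmg had 8 and 10 against 11 and 2, also -0.17 (edgeR adjusted p = 0.918). In all 4 of these genes dd replicate 2 was the lowest library and the groups overlapped. Gzmm, encoded on chromosome 10, had 22 and 15 counts against 19 and 29, a log2 change of 0.62 (edgeR adjusted p = 0.288). Gzmk had at most 4 counts in a library and Gzmn at most 1, and neither was tested.

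**Figure D3:**
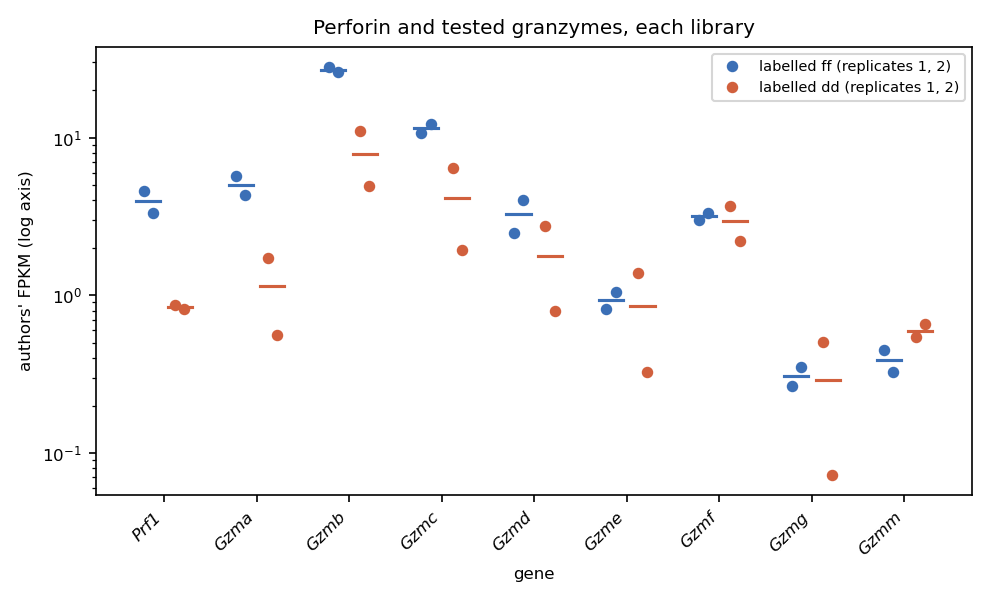
The vertical axis is the authors' FPKM on a log axis for perforin and the 8 tested granzymes, with 1 point per library and a bar at each group mean. Gzma, Gzmb and Gzmc are lower in both libraries labelled dd, while the groups overlap in Gzmd to Gzmg.

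The Klr genes are the largest block: 30 of the 58, of which 28 lie in 1 cluster on chromosome 6 between 128609227 and 131247362 (mm10). All 24 that were tested had a log2 change below 0, with a median of -1.34, and 7 of the 24 fell, beside 3.86% of all tested genes. Their summed level was 106.1 and 88.2 CPM in the libraries labelled ff and 34.8 and 43.5 CPM in those labelled dd.

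Among Klr genes outside the Ly49 branch, Klre1 (chromosome 6, 129577905 to 129585827) had the smallest p of all 58 genes. Its protein pairs with KLRI1 or KLRI2 to form an inhibitory or an activating receptor. It had 288 and 254 counts in the libraries labelled ff and 45 and 60 in those labelled dd. The replicates lay close together in each group, at 8.40 ± 0.352 and 1.94 ± 0.0538 CPM, and the fall was 4.32-fold (log2 -2.11, SE 0.203, edgeR adjusted p = 0.0191). Its activating partner Klri2 (129729041 to 129740484) had 137 and 141 counts against 42 and 34, and fell by 1.58 on the log2 scale (SE 0.311, edgeR adjusted p = 0.0491). The inhibitory partner Klri1 was scarce, with 13 and 12 counts against 4 and 3, and at -1.54 on the log2 scale it did not pass (edgeR adjusted p = 0.119).

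Klrg1 (chromosome 6, 122270596 to 122282882) had the largest change. It encodes an inhibitory receptor of mature NK cells and effector T cells that binds cadherins. It had 113 and 86 counts in the libraries labelled ff and only 2 and 9 in those labelled dd, or 3.08 ± 0.448 against 0.191 ± 0.150 CPM. It was 15.1-fold lower (log2 -3.92, SE 0.518, edgeR adjusted p = 0.0264), and the 95% interval of the edgeR fit ran from -5.26 to -2.58 on the log2 scale. The 95% counting interval of that ratio, which leaves out the spread between libraries, ran from 8.28 to 30.8. The size rests on few counts: the fall was 10.2-fold without dd replicate 1. Against the 2 counts of dd replicate 1 alone, the ratio was 36.5, with a counting interval from 9.97 to 303.3. Klrg2, also encoded outside the cluster, had 30 and 21 counts against 5 and 21, and its groups overlapped (log2 -0.75, edgeR adjusted p = 0.436).

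Klrk1 (129610323 to 129623864) encodes NKG2D, an activating receptor for stress-induced ligands. It had 309 and 244 counts in the libraries labelled ff and 77 and 105 in those labelled dd, and fell by 1.35 on the log2 scale (SE 0.204, edgeR adjusted p = 0.0315). Klrd1 (129591782 to 129598775) encodes CD94, which pairs with the NKG2 chains to read the class Ib molecule Qa-1. It had 340 and 254 counts against 85 and 127, or 9.18 ± 1.46 against 3.90 ± 0.421 CPM, and fell by 1.24 (SE 0.219, edgeR adjusted p = 0.0402). Its inhibitory partner Klrc1 had 31 and 30 counts against 7 and 14, and its activating partner Klrc2 had 105 and 64 against 17 and 33. Both partners were lower in both libraries labelled dd, with log2 changes of -1.29 (edgeR adjusted p = 0.0950) and -1.51 (edgeR adjusted p = 0.0778) that did not pass. Of all 75-base stretches of Klrc1, 25.01% also occur in another gene, mostly Klrc2, so reads of the pair may not be fully told apart. Klrc3 had at most 9 counts in a library and was not tested.

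The Klrb1 genes encode the NKR-P1 receptors, which read Clec2 lectins on neighbouring cells. Klrb1c, the NK1.1 marker of C57BL/6 NK cells and an activating receptor, had 176 and 107 counts in the libraries labelled ff and 26 and 57 in those labelled dd. That was a log2 change of -1.54 (edgeR adjusted p = 0.0799). Klrb1f had 49 and 52 counts against 21 and 32, at -0.68 (edgeR adjusted p = 0.188). Klrb1a had 22 and 36 against 13 and 20, at -0.57 (edgeR adjusted p = 0.402). These 3 were lower in both libraries labelled dd without passing. The inhibitory receptor gene Klrb1b overlapped between groups, with 73 and 31 counts against 27 and 47 (log2 -0.24, edgeR adjusted p = 0.768). Klrb1b shares 24.5% of its 75-base stretches with other genes and Klrb1c 13.2%, mostly with Gm44511, whose exons overlap those of both on the same strand. Klrb1 had at most 13 counts in a library and Klrb1-ps1 at most 2, and neither was tested.

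Ly49 receptors, encoded by the Klra genes, read classical class I molecules, and each NK cell displays only some of them. All 11 tested had both libraries labelled dd below both labelled ff, where 31.3% of all tested genes did, and their median log2 change was -1.33. At the adjusted threshold 2 of the 11 fell, beside 3.86% of all tested genes. Klra7 (130218605 to 130233322), which encodes the inhibitory receptor Ly49G, had 324 and 240 counts in the libraries labelled ff and 57 and 39 in those labelled dd. It fell 4.75-fold, from 8.72 ± 1.43 to 1.85 ± 0.796 CPM (log2 -2.25, SE 0.364, edgeR adjusted p = 0.0354). Klra13-ps (130290878 to 130306428), a pseudogene of the branch, had 379 and 297 counts against 103 and 162 and fell by 1.11 (SE 0.210, edgeR adjusted p = 0.0460). Of their 75-base stretches, 5.71% of those in Klra7 and 6.08% of those in Klra13-ps occur in another gene, and each is the other's main partner.

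The other Ly49 genes did not pass and are given by values. The activating receptor gene Klra8 (Ly49H) was the most abundant Klra gene per length, at 11.5 ± 1.79 FPKM in the libraries labelled ff. It had 500 and 376 counts against 117 and 260, a log2 change of -0.996 (edgeR adjusted p = 0.115), and 19.7% of its stretches are shared, mostly with Klra14-ps. The other activating gene, Klra4 (Ly49D), had 234 and 186 counts against 71 and 106, at -0.997 (edgeR adjusted p = 0.0632). The inhibitory receptor gene Klra3 (Ly49C) had 87 and 57 counts against 17 and 24, at -1.55 (edgeR adjusted p = 0.0541), just short of the threshold. The inhibitory receptor gene Klra9 (Ly49I) had 88 and 66 against 19 and 51, at -0.92 (edgeR adjusted p = 0.223). In Klra8, Klra4, Klra3 and Klra9 alike, dd replicate 2 had the higher count of the pair labelled dd. Klra2 (36 and 37 counts against 12 and 12), Klra5 (25 and 14 against 4 and 5), Klra10 (31 and 24 against 11 and 6) and Klra14-ps (90 and 65 against 10 and 40) had log2 changes between -1.33 and -1.82. Their edgeR adjusted p ran from 0.0730 to 0.168. Klra1 (Ly49A) moved least, with 23 and 22 counts against 13 and 17 (log2 -0.33, edgeR adjusted p = 0.526). Klra6, Klra11-ps and Klra17 were at most at 9 counts in a library and were not tested.

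The remaining NK receptor genes and their adaptor were also lower in both libraries labelled dd, by unequal amounts. Cd244a (chromosome 1, 171559193 to 171609746) encodes the receptor 2B4, whose ligand is CD48 on other leukocytes. It had 214 and 125 counts in the libraries labelled ff and 34 and 45 in those labelled dd, and fell by 1.83 on the log2 scale (SE 0.323, edgeR adjusted p = 0.0402). Ncr1, the natural cytotoxicity receptor NKp46 and a defining NK marker, had 256 and 194 counts against 107 and 82. At -0.95 on the log2 scale (SE 0.317) it did not pass (edgeR adjusted p = 0.132). Tyrobp encodes DAP12, the signalling adaptor of the activating Ly49 receptors, which myeloid cells use as well. It had the highest level per length of the 58 genes, at 34.4 ± 4.57 FPKM in the libraries labelled ff. Its counts were 834 and 648 against 341 and 450, with a log2 change of -0.65 (edgeR adjusted p = 0.0632).

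Eomes and Tbx21 are related T-box factors that NK cells need for their maturation. Eomes (chromosome 9, 118478212 to 118486132) had 302 and 241 counts in the libraries labelled ff and 56 and 45 in those labelled dd. It fell 4.38-fold, to 1.93 ± 0.626 CPM (log2 -2.13, SE 0.301, edgeR adjusted p = 0.0289). Exons of Eomes overlap Gm33460 on the opposite strand. Tbx21, which encodes T-bet and is also used by type 1 helper T cells, had 98 and 64 counts against 19 and 35. It was lower in both libraries labelled dd, at -1.34 on the log2 scale, and did not pass (SE 0.347, edgeR adjusted p = 0.0833).

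Of the 9 genes of the T cell receptor complex and the coreceptors none passed edgeR's quasi-likelihood test. At an unadjusted p under 0.05, Trbc1 and Trbc2 were lower, against 14.4% of all genes, and Trbc1 passed with DESeq2's Wald test. The exact test of edgeR, limma-voom and limma-trend called none. The median log2 change of the 9 was -0.53, where that of the 41 tested genes outside this complex was -1.33. Whether these medians differ was not tested. The CD3 chains carry the T cell receptor's signal. Cd3d had 18 and 18 counts in the libraries labelled ff and 16 and 13 in those labelled dd, a log2 change of -0.03 (edgeR adjusted p = 0.963). Cd3e had 18 and 15 against 19 and 12, at 0.20 (edgeR adjusted p = 0.801), and Cd3g had 75 and 78 against 105 and 86, at 0.61 (edgeR adjusted p = 0.261). Only Cd3g stood apart between the groups among the CD3 chains, and it was the higher in the libraries labelled dd. Cd247, the zeta chain that NK cells use as well, had 98 and 66 counts against 56 and 35 (log2 -0.53, edgeR adjusted p = 0.455). Cd3e overlaps Gm48719 and Cd247 overlaps Pou2f1 on the opposite strand.

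The constant regions of the T cell receptor beta chain were lower in both libraries labelled dd without passing. Trbc1 had 266 and 186 counts against 88 and 119 (log2 -0.87, edgeR adjusted p = 0.0898), and Trbc2 had 116 and 119 against 57 and 48 (log2 -0.88, edgeR adjusted p = 0.136). They share 34.6% and 37.7% of their 75-base stretches, mostly with each other. The coreceptor gene Cd4 had 55 and 59 counts against 11 and 38 (log2 -1.01, edgeR adjusted p = 0.246), the 2 libraries labelled dd lying far apart. The chains of CD8 were near the limit of detection. Cd8a had 12 and 24 counts against 16 and 10, at a log2 change of -0.19 (edgeR adjusted p = 0.853), and Cd8b1 had 11 and 11 against 6 and 5, at -0.72 (edgeR adjusted p = 0.349).

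**Figure D4:**
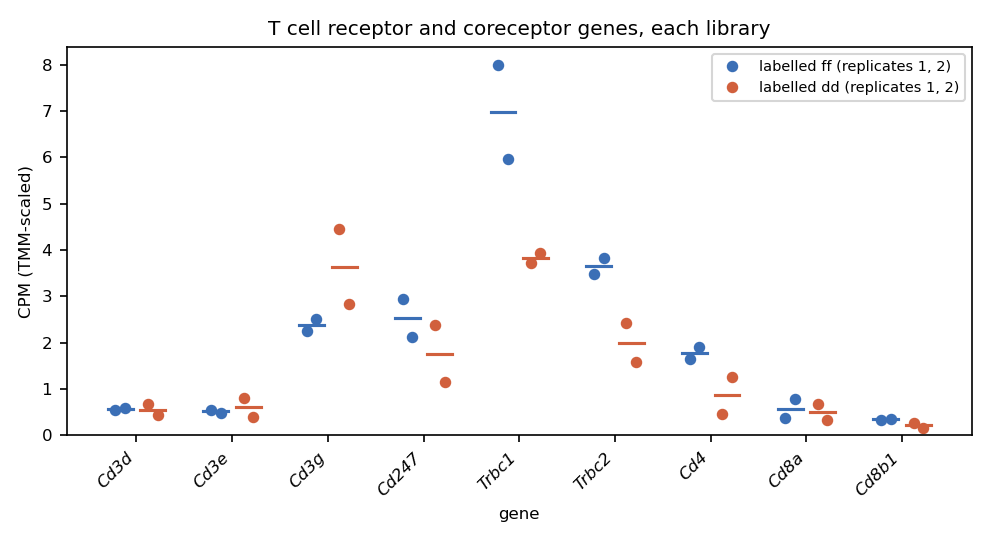
The vertical axis is CPM on a linear scale from 0 for the 9 genes of the T cell receptor complex and coreceptors, with 1 point per library and a bar at each group mean. Trbc1 and Trbc2 are lower in both libraries labelled dd, Cd3g is higher in both, and Cd3d and Cd3e overlap.

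Other genes of the NK and cytotoxic T cell pathway were taken from a list of 109, of which 98 were tested: 12 fell and 5 rose, and the median log2 change was -0.55. Over all tested genes 3.86% fell and 4.52% rose, so the share of the list that rose was near that of all genes, and the counts of the smaller lists below stand beside the same shares. Of the growth and activating cytokines and their receptors, 4 of 11 fell. Il15, the cytokine NK cells depend on, had 637 and 447 counts in the libraries labelled ff and 153 and 241 in those labelled dd, and fell by 1.21 (edgeR adjusted p = 0.0409). Il15ra, which presents interleukin 15 to the NK cell, had 716 and 772 counts against 260 and 331 and fell by 1.08 (edgeR adjusted p = 0.0255). Il2rb, the signalling chain on the responding cell, had 1750 and 1359 counts against 356 and 494. It fell by 1.62, from 48.1 ± 6.32 to 15.7 ± 0.877 CPM (edgeR adjusted p = 0.0165). The interleukin 21 receptor gene Il21r had 243 and 218 counts against 46 and 68, a fall by 1.77 (edgeR adjusted p = 0.0247). So the cytokine, its presenting chain and its receptor chain were all lower in the same libraries. Il2rg, the chain shared by several cytokine receptors, had 557 and 515 counts against 322 and 326 and did not pass (log2 -0.45, edgeR adjusted p = 0.160). Of the 11 genes, 8 had a log2 change below 0. The receptor gene Il18r1 went the other way, with 187 and 187 counts against 231 and 557 (log2 1.28, edgeR adjusted p = 0.0843). It passed as higher with DESeq2's Wald test and with edgeR's exact test.

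Of the signalling genes, 4 of 21 fell and 1 rose. Fcer1g, the signalling chain of Fc receptors and NK receptors that mast cells and macrophages also use, had 1879 and 1684 counts against 474 and 553, a fall by 1.53 (edgeR adjusted p = 0.0147). The GTPase gene Rac2 had 1173 and 1085 against 394 and 430, a fall by 1.18 (edgeR adjusted p = 0.0221). The lymphocyte adaptor gene Sh2d2a had 291 and 258 against 69 and 67, a fall by 1.73 (edgeR adjusted p = 0.0267). The proteins of Stx11 and Unc13d act at successive steps of granule release, and the genes moved in opposite directions. Stx11 had 449 and 285 counts against 96 and 103 and fell by 1.60 (edgeR adjusted p = 0.0367), while Unc13d had 558 and 602 against 834 and 1164 and rose by 1.03 (edgeR adjusted p = 0.0246). The SLAM-family adaptor gene Sh2d1b1 had 64 and 42 counts against 12 and 16 and did not pass (log2 -1.65, edgeR adjusted p = 0.0525).

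Among the other receptors, 2 of 25 fell and 1 rose. Fcgr3, the Fc receptor CD16 of NK cells and macrophages, had 566 and 533 against 226 and 230, a fall by 0.99 (edgeR adjusted p = 0.0393). Itgae, the integrin chain of lymphocytes held in epithelium, went the other way, with 135 and 140 counts against 243 and 297, a rise by 1.23 (edgeR adjusted p = 0.0302). Itgb2, the beta chain of leukocyte integrins, had 634 and 545 against 283 and 341 and did not pass (log2 -0.65, edgeR adjusted p = 0.0537). Of 8 tested products, 1 fell: Xcl1, a chemokine for cross-presenting dendritic cells, had 240 and 182 counts against 45 and 58 (log2 -1.77, edgeR adjusted p = 0.0267) and overlaps Gm20743 on the opposite strand. Of 17 transcription factor genes 1 rose. Id2, which NK cells need for their development and which many other cells express, had 2590 and 3146 counts against 6741 and 8797, a rise by 1.69 (edgeR adjusted p = 0.0166). Ets1 had 2541 and 2034 against 831 and 1391 and did not pass (log2 -0.80, edgeR adjusted p = 0.0522).

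Of 16 tested ligands for the receptors above, 1 fell and 2 rose. H60c, a ligand of NKG2D, had 2 and 44 counts in the libraries labelled ff and 1137 and 1517 in those labelled dd. The rise was 6.08 on the log2 scale (SE 0.869, edgeR adjusted p = 0.0292), from 0.736 ± 0.956 to 49.1 ± 1.38 CPM. The ff libraries differ so much that the size is loose: the 95% interval of the edgeR fit ran from 3.831 to 8.325 on the log2 scale. From the pooled counts the ratio was 68.95, with a counting interval from 51.6 to 94.4 that leaves out the spread between libraries. Against the 2 counts of ff replicate 1 the ratio was 819.3, with a counting interval from 226.6 to 6769. The log2 change was 5.12 without ff replicate 1, and the call was lost without dd replicate 1 (edgeR adjusted p = 0.0634) or dd replicate 2 (0.0724). The other NKG2D ligand genes named here were lower without passing: Raet1d had 74 and 48 counts against 16 and 4 (log2 -2.27, edgeR adjusted p = 0.111) and Ulbp1 had 620 and 350 against 236 and 250 (log2 -0.71, edgeR adjusted p = 0.182). Cdh1, the epithelial cadherin that KLRG1 binds and one of the epithelial markers below, had 6286 and 6200 counts against 8334 and 12137 and rose by 0.96 (edgeR adjusted p = 0.0240). Clec2d, the ligand gene of the receptor from Klrb1b, had 1652 and 1318 against 735 and 851 and fell by 0.64 (edgeR adjusted p = 0.0482). Clec2f had 18 and 12 against 35 and 41 and did not pass (log2 1.60, edgeR adjusted p = 0.0520). So Klrk1 and Klrg1 were lower in the same libraries in which H60c and Cdh1 were higher. Not every ligand gene of these 2 receptors rose. Beside Raet1d and Ulbp1 above, Raet1e overlapped between groups (log2 -0.78, edgeR adjusted p = 0.621). Cdh2, the other listed cadherin gene, had 408 and 342 counts against 197 and 240 and did not pass (log2 -0.52, edgeR adjusted p = 0.116). H2-T23, which encodes Qa-1, had 1763 and 1787 counts against 742 and 1496 (log2 -0.45, edgeR adjusted p = 0.259), and Cd48, the ligand of 2B4, had 245 and 208 against 121 and 140 (log2 -0.53, edgeR adjusted p = 0.155). Il2rg, Il18r1, Raet1d, Raet1e, Ulbp1, Cdh2, H2-T23 and Cd48 were picked after their values were seen. Of the pathway genes that passed, Id2 alone did so whichever library was left out, and Il15ra, Fcgr3, Itgae and Clec2d lost their calls whichever was left out. With all 4 libraries, Clec2d also lost its call with limma-voom and limma-trend (adjusted p = 0.0520 and 0.0532), Stx11 with limma-trend (0.0506) and Il15 with the replicate block of edgeR (0.0549).

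**Figure D5:**
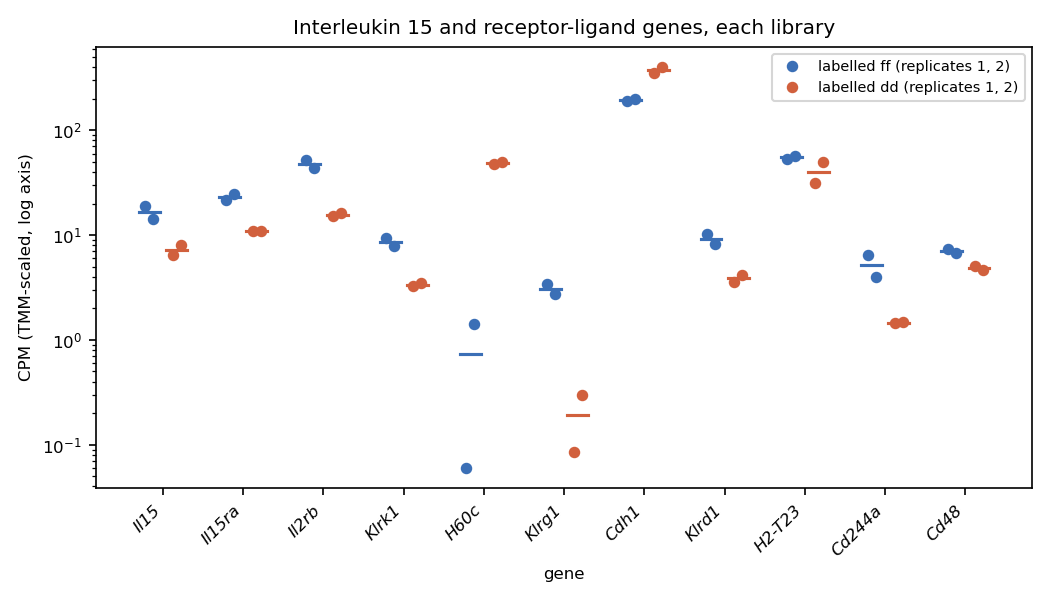
The vertical axis is CPM on a log axis for interleukin 15 genes and for receptor genes next to their ligand genes, with 1 point per library and a bar at each group mean. Il15, Il15ra, Il2rb and the receptor genes Klrk1, Klrg1, Klrd1 and Cd244a are lower in both libraries labelled dd. Of the ligand genes, H60c and Cdh1 are higher in both, and H2-T23 and Cd48 are lower in both.

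Markers of other cells moved between the same libraries, and their part in the results above was not tested. Ptprc, the CD45 antigen of all leukocytes, had 1585 and 1412 counts against 497 and 567 and fell by 1.23 (edgeR adjusted p = 0.0166). The median over 4 leukocyte genes was -0.89, and 2 fell. Laptm5, another of the 4, lay the other way, at 68.9 and 64.8 CPM in the libraries labelled ff and 74.6 and 99.3 in those labelled dd, and did not pass (log2 0.38, edgeR adjusted p = 0.189). Of 9 macrophage genes 3 fell, at a median of -0.73, with 344.1 and 419.7 against 330.7 and 318.7 summed CPM. Of 5 dendritic cell genes 1 fell, at a median of -1.06, and all 5 endothelial genes fell, at a median of -0.92. B and plasma cell genes went the other way: 5 of 6 tested rose, and their summed level was 418.7 and 616.4 CPM against 3744 and 8510. Of 5 epithelial genes 4 rose, at a median of 0.97. For the lineages of concern here, the 10 NK markers held 3 that fell and 1 that rose at a median of -1.09. Because 6 of the 10 are among the 58 genes, this median is not independent of the results above. Outside those 6, log2 changes ran from -0.73 (Itga2) to 1.23 (Itgae). The 12 T cell markers, 8 of them among the 58 genes, had a median of -0.20 and 2 below an unadjusted p of 0.05. None passed with edgeR's quasi-likelihood test, and their summed level was 20.4 and 20.8 against 16.5 and 16.6 CPM. No marker in these lists was at 0 in all 4 libraries.

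In the authors' deposited table, 28 of the 58 genes had an unadjusted p under 0.05 with a fold under 1 and none with a fold over 1, where 6.04% of tested genes had the former. For Klrg1 the authors' deposited table gave a fold of 0.0661.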

How the data were processed

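RNA from whole uteri on pregnancy day 4 was extracted with TRIzol and made into Illumina TruSeq libraries, per the labels' protocols, after a poly-A step per the series' design text. The authors used STAR, edgeR and mm10, per the submitters' processing notes. No read counter, read length or strand setting is given in the sources used here. The deposited table holds whole-number counts, rescaled counts (a signal, not used here), FPKM per the file headers (the design text says RPKM), a fold ratio and a p-value.

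Deposited counts of all 4 libraries were compared with edgeR 4.0.16 (R 4.3.3), using TMM, filterByExpr, the quasi-likelihood test and Benjamini-Hochberg adjustment over 18530 genes, with calls at 0.05; the script was tested on simulated data. The biological coefficient of variation was 0.185. Values are TMM-scaled CPM, with SD over 2 libraries; levels between genes are compared by FPKM only. Counting intervals cover counting error only. Replicates differed beyond sampling noise (chi-square per degree of freedom 35.3 in ff, 36.0 in dd). Group labels share replicate numbers, but nothing says that a number pairs libraries, so the fit has no block.

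Members and lists were chosen with earlier results of these data known. All members are named. Of the pathway list, every called gene, the next 4 by p and the genes stated as picked are named. Of each marker list, at most 2 further genes are named. Results for some genes of these lists are not reported here. Positions and shared 75-base stretches come from GENCODE M21, promoters from RefSeq. Alternatives were other scalings, filters, DESeq2 1.42.0, limma 3.58.1 (voom, and trend on log2(FPKM + 0.5)), edgeR's exact test, a replicate block and each library left out, where the lone library of a group is assumed to vary like the other group.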

Additional observations from a re-analysis of the deposited data

How the results depend on the processing

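All 12 genes that fell kept their direction under every alternative run. DESeq2 size factors, upper quartile factors, library size alone and a filter of 1 CPM in 2 libraries kept all 12 calls, and limma-voom and limma-trend kept 11, without Cd244a. More genes passed without a filter (22 of 58 genes, and 2947 of all genes), with the DESeq2 Wald test (23, and 2864) and with edgeR's exact test (25, and 3051). Leaving out 1 library gave 0 to 7 of these genes and 90 to 1198 of all genes, with the lowest numbers without ff replicate 1; fewer libraries enter these fits. Klre1 and Klrg1 lost their calls only without ff replicate 1 (edgeR adjusted p = 0.0663 and 0.0866), whereas Fasl, Klra13-ps, Klrd1, Klri2 and Klrk1 lost theirs whichever library was left out. With a replicate block 10 passed, 8 of them from the 12, beside 1531 of all genes; Fasl, Klra13-ps, Klrd1 and Klri2 were lost and Gzma and Gzmb gained. Deviations of same-numbered libraries correlated at 0.00873 across genes. That value rests on 1 difference per group, so it cannot tell whether the numbers pair libraries. Higher calls made up 53.9% of all calls with TMM, 47.4% with upper quartile factors and 42.4% with library size alone.

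Log2 changes that turned sign did so only when 1 library was left out, in genes that never passed, and the cause was not tested. Klrb1b turned to 0.44 without ff replicate 1, and kept its sign at -0.70 without ff replicate 2. Without ff replicate 2, Cd3d turned to 0.01, Cd8a to 0.45, Gzme to 0.02 and Gzmg to 0.06. Without dd replicate 1, Cd3e alone turned, to -0.36. Cd3d at -0.37, Cd8a at -0.75, Gzme at -1.51, Gzmf at -0.52 and Gzmg at -2.01 kept their sign there. Without dd replicate 2, Cd3d turned to 0.28, Cd8a to 0.27, Gzme to 0.57, Gzmf to 0.24 and Gzmg to 0.73, while Cd3e kept its sign at 0.65. Depth limits the 8 genes that were not tested, which had at most 13 counts in a library.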

Other observations

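Set against Ptprc, receptor and granule genes gave unlike ratios. The genes below were picked after their values were seen, and no test was run on the ratios. Per 100 Ptprc counts, Nkg7 had 29.7 and 26.6 counts in the libraries labelled ff and 26.2 and 26.5 in those labelled dd. Klrk1 had 19.5 and 17.3 against 15.5 and 18.5, and Klrd1 had 21.4 and 18.0 against 17.1 and 22.4, so both overlapped. Ncr1 had 16.2 and 13.7 against 21.5 and 14.5. By contrast, Klre1 had 18.2 and 18.0 against 9.05 and 10.6, Prf1 had 24.7 and 19.1 against 10.7 and 11.3, and Eomes had 19.1 and 17.1 against 11.3 and 7.94. Klrg1 had 7.13 and 6.09 against 0.402 and 1.59. Ptprc is 1 of 4 leukocyte markers, and Laptm5 among them was higher in both libraries labelled dd. Ptprc counts come from all leukocytes, so these ratios are not levels per NK cell.

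Of 5 tested gamma-delta T cell genes none passed with edgeR's quasi-likelihood test, 1 was higher at an unadjusted p under 0.05 and 1, Cd163l1, passed with DESeq2 and edgeR's exact test. Their median log2 change was 0.60. Cd163l1 had 93 and 87 counts against 273 and 150 (log2 1.56, edgeR adjusted p = 0.0990), and the constant region gene Trdc had 126 and 120 against 128 and 97, with overlapping groups.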
